A study of Mus musculus with 6 samples.

Results

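Ceacam1 and 9 further genes for ligands that immune checkpoint receptors recognise were followed in mouse gastric corpus organoids, epithelial structures grown in 3D culture from the main, glandular region of the stomach. The 10 genes were given by name as a fixed list, which was chosen with earlier results of these data known. They were matched by Ensembl gene ID to their symbols, and stand among 25528 genes in the deposited count tables. The organoids carried either an Erbb2 overexpression construct (Erbb2_OE_Corpus, 3 libraries) or an empty vector (Ctrl_Corpus, 3 libraries), and the controls thus also went through transduction. The sources used here do not give the mouse strain, age or sex, the promoter and species of the Erbb2 sequence, whether a group is 1 clone, or whether its libraries are of separate cultures, so that p-values measure the spread between these libraries, which may be technical. The series' title places these organoids in a study of how tumours derived from them respond to checkpoint inhibitors; the 6 libraries here are of cultured organoids, with no drug named in the labels.

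Checkpoint ligands are proteins on the surface of tumour or epithelial cells that bind inhibitory receptors on lymphocytes, or, in the case of CD47, on macrophages, and dampen their activity. PD-L1 (Cd274) binds PD-1, galectin-9 (Lgals9) and CEACAM1 are described as ligands of TIM-3, PVR and, more weakly, nectin-2 bind TIGIT, HVEM (Tnfrsf14) binds BTLA, and B7-H3 (Cd276) and B7-H4 (Vtcn1) are members of the B7 family. CEACAM1 is a cell adhesion molecule of epithelia and leukocytes that binds itself on neighbouring cells, and its long cytoplasmic form carries inhibitory tyrosine motifs that recruit the phosphatases SHP-1 and SHP-2.

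Between 18735853 and 22767455 reads were counted per library. Values are given as CPM, counts per 1000000 counts after TMM scaling, which corrects library sizes for differences in composition. Erbb2 was at 125, 164 and 128 CPM in control replicates 1, 2 and 3 and at 342, 349 and 285 CPM in the Erbb2 libraries, which matches the labels (2.35-fold with the replicate number in the fit; edgeR adjusted p = 3.47e-05, or 0.640 without that number). The epithelial markers Epcam, Cdh1, Krt8, Krt18, Krt19, Cldn18 and Krt7 were each at 307 CPM or more in all 6 libraries. Of the 10 gastric corpus markers, 9 had enough counts to be tested, though Gkn1, Gkn2 and Atp4a reached only 4.83, 2.38 and 5.41 CPM. Atp4b, which encodes a subunit of the parietal cell proton pump, was at 0 in all 6. Of 12 immune markers, 8 were at 0 in every library, among them the T and natural killer cell genes Cd3g, Cd4, Cd8a, Nkg7 and Ncr1, and the summed level of all 12 lay between 1.29 and 2.54 CPM in the controls and between 1.18 and 1.30 CPM in the Erbb2 libraries. Both libraries of replicate 3 stood apart from the other 4 on the first principal component (57.8% of the variance).

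Ceacam1 (ENSMUSG00000074272) was at 58.3, 58.0 and 78.7 CPM in control replicates 1, 2 and 3, from 1258, 1030 and 1830 counts. It was at 104, 97.7 and 112 CPM in Erbb2 replicates 1, 2 and 3, from 2382, 1725 and 2685 counts. All 3 Erbb2 libraries thus lay above all 3 controls, and control replicate 3 was the highest of its group. Such a separation of the groups in either direction was found for 8.75% of the 12593 genes tested, as higher for 4.27% and as lower for 4.48%. Group means were 65.0 ± 11.9 CPM and 104 ± 7.07 CPM (SD, n = 3).

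The test fitted to the group alone gave a log2 fold change of 0.68 with a standard error of 0.15 (95% interval 0.33 to 1.03; edgeR quasi-likelihood test, adjusted p = 0.9997 by Benjamini-Hochberg over all genes). In that fit 0% of all genes passed the threshold of 0.05, in both directions, although 419 had an unadjusted p below it; limma voom also called 0 without the block, and DESeq2 called 28 genes higher and 6 lower. Libraries of the same replicate number varied together, and with that number as a block Ceacam1 rose 1.62-fold (log2 fold change 0.69, SE 0.09, 95% interval 0.50 to 0.89; edgeR adjusted p = 0.00203). It was the single member among the 8 tested that passed. In that fit 3.09% of all tested genes passed, 2.37% as higher and 0.723% as lower, and 2121 had an unadjusted p below 0.05. Within the pairs of libraries the ratio was 1.78, 1.68 and 1.42 for replicates 1, 2 and 3. DESeq2 called Ceacam1 also without the block (adjusted p = 0.0414), and limma voom did not (adjusted p = 0.9996). The call was kept in all 12 fits with the block, including those that left out a pair. Their log2 fold changes lay between 0.63 and 0.80, with an adjusted p of at most 0.0205. The fit that sums Ceacam1 with Ceacam2 is among the 12 but only repeats the block fit, because Ceacam2 had 0 counts. In bulk RNA, more cells that express a gene and more of its RNA per cell cannot be told apart.

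**Figure D1:**
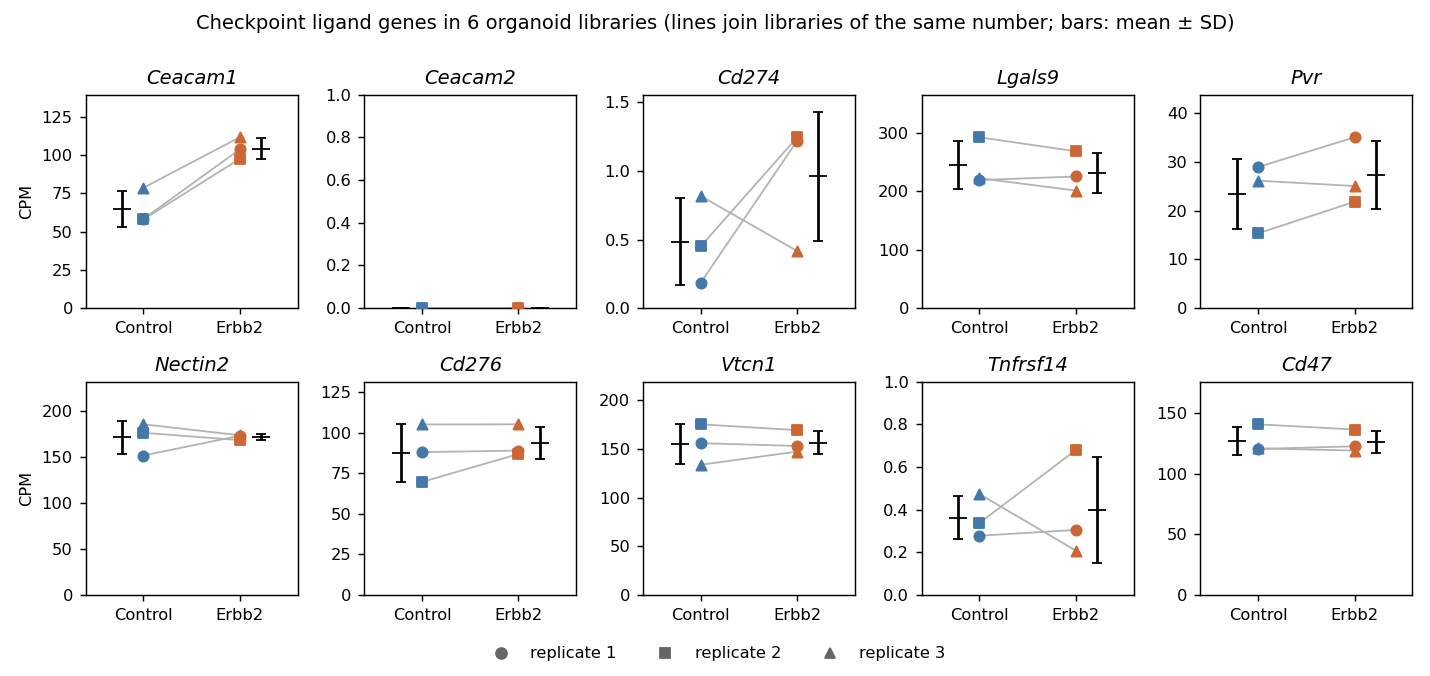
CPM of the 10 genes in the 6 libraries, with controls in blue, Erbb2 libraries in orange, symbols for replicate numbers, grey lines between libraries of the same number and black bars for the mean ± SD (n = 3). Ceacam1 is higher in every Erbb2 library than in every control, Ceacam2 is at 0 throughout, and the lines of Cd274 cross.

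Ceacam2 (ENSMUSG00000054385), the mouse paralog of Ceacam1 on the same chromosome, had 0 counts in each of the 6 libraries. With a one-sided limit of 3 counts for a count of 0, up to between 0.125 and 0.170 CPM is allowed in these libraries; the exact two-sided 95% limit is 0.154 to 0.209 CPM, and both cover counting error only. The pair is alike enough for reads to be shared. The coding sequences of the longest annotated coding transcripts of Ceacam1 and Ceacam2, of 1566 and 1563 bases, were identical at 92.2% of 1544 aligned bases. Of the distinct 100-base windows in the annotated transcripts of Ceacam1, 20.5% (1280 of 6249) also occurred without mismatch in a transcript of Ceacam2. From the side of Ceacam2 the shared windows were 32.9% of 3886, and 2606 windows occurred in Ceacam2 but not in Ceacam1. With 50-base windows the shares were 29.6% and 46.7%. Counts summed over both genes were those of Ceacam1 alone, so that the fold change and the adjusted p did not move. How the authors' counting treated reads that fit both genes is not given in the sources used here, and the counts of Ceacam1 may leave out reads from its shared stretches.

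Coding stretches with many and with no differences between the paralogs show where a read can be assigned. Only stretches of 120 bases aligned without a gap were compared. The one with the most differences, coding bases 250 to 369 in both transcripts, differs at 24 positions, which are in capitals (GENCODE M21 transcripts, 5′ to 3′).
Ceacam1: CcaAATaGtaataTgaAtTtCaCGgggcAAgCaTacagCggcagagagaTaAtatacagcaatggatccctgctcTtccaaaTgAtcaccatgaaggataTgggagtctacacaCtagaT
Ceacam2: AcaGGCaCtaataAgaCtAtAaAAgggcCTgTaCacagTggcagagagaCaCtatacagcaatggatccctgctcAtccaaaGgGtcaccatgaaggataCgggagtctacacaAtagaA
From coding base 531 to 650 the transcripts are the same at all 120 positions, and a read that lies wholly in this stretch cannot be assigned to either gene.
Ceacam1 and Ceacam2: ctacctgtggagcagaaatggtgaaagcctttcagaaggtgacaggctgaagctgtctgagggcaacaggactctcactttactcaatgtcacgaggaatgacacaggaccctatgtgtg

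The promoter windows of the paralogs, from 250 bases before to 50 bases after the annotated start, are shown because Ceacam1 had reads in every library and Ceacam2 in none. They are from RefSeq on GRCm38.p6, chr7:25477576-25477875 for Ceacam1 and chr7:25539955-25540254 for Ceacam2, both on the minus strand and written 5′ to 3′. Capitals mark the stretch that aligns between them, 128 aligned bases of which 113 (88.3%) are identical.
Ceacam1: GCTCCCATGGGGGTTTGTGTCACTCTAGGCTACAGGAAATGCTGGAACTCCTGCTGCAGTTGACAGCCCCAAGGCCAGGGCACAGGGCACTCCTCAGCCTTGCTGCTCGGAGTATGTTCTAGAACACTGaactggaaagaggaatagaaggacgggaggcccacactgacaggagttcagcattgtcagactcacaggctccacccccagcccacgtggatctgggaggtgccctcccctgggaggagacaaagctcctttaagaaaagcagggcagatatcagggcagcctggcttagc
Ceacam2: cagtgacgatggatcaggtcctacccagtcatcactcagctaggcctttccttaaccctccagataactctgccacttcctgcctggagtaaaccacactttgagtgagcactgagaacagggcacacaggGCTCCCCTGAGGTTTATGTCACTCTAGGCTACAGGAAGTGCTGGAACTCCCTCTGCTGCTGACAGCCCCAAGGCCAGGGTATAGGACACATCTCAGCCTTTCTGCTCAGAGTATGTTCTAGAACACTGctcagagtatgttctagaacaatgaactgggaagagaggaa
The aligned stretch covers positions -250 to -122 from the annotated start of Ceacam1 but -119 to 8 of Ceacam2, so that the annotated starts do not lie at matching positions. The E-box CACGTG, searched on both strands, was found once in the window of Ceacam1, from position -38, and was not found in that of Ceacam2; 7.15% of 32851 promoter windows of this length hold it. The AP-1 motif TGANTCA (7.81% of windows) and the interferon-stimulated response element core, GAAA, any 2 bases and GAAA (3.44% of windows), were found in neither. Promoter windows were at hand for 9 members, and Pvr, which had none, was not searched. Among the other members' windows in RefSeq, the AP-1 motif was found in that of Vtcn1 and the response element core in those of Lgals9 and Tnfrsf14. A match or its absence in such a window is a description of its letters and says nothing of a factor's binding.

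**Figure D2:**
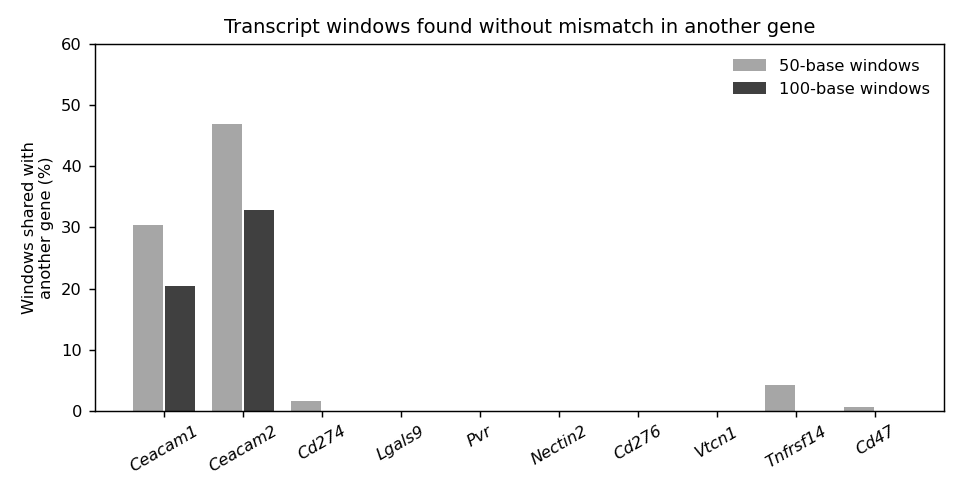
Share of distinct transcript windows of each gene, in percent, that occur without mismatch in a transcript of another gene, for windows of 50 bases (grey) and 100 bases (dark). With 100 bases the shares are 20.5% for Ceacam1 and 32.9% for Ceacam2 and 0% for the other 8 genes.

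For the other 8 members, 0% of the 100-base windows occurred in another gene, and with 50-base windows the share was 1.68% for Cd274, 4.25% for Tnfrsf14, 0.615% for Cd47 and 0% for the rest. The genomic spans of Ceacam1, Ceacam2, Cd274, Pvr, Nectin2 and Cd276 each overlap an annotated gene on the opposite strand. Whether their exons overlap was not examined. The strand setting of the counting is not given in the sources used here, so the members' counts may hold reads of these partners. Gm10657, the partner of Cd276, had its own row in the count tables, with 21 counts over the 6 libraries. The partners of the others had no row there.

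Cd274 (ENSMUSG00000016496), which encodes PD-L1, had few reads. Control replicates 1, 2 and 3 had 4, 8 and 19 counts, or 0.185, 0.451 and 0.817 CPM. Erbb2 replicates 1, 2 and 3 had 28, 22 and 10 counts, or 1.22, 1.246 and 0.416 CPM. The groups overlapped, because the Erbb2 library of replicate 3 lay below 2 of the 3 controls. Its level was 6.59 and 2.76 times that of the control in replicates 1 and 2 and 0.509 times that of the control in replicate 3. The exact Poisson intervals, which cover counting error only, were 0.0505 to 0.475 CPM in control replicate 1 against 0.812 to 1.77 CPM in its Erbb2 partner, and overlapped in replicates 2 and 3. With the block the log2 fold change was 0.90 with a 95% interval from -0.48 to 2.30 (edgeR adjusted p = 0.527). It was 2.002 without the pair of replicate 3 (edgeR adjusted p = 0.0615) and 0.22 without that of replicate 1 (adjusted p = 0.947). The interval thus holds values on both sides of 0.

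No tested gene of a list of PD-L1 regulators, which holds inducers and stabilisers as well as genes that oppose PD-L1 or interferon signalling, passed the test. Of 17 genes in this list, 16 were tested and 0 passed in either direction, with or without the block, by edgeR, DESeq2 and limma voom, with 0 at an unadjusted p below 0.05. In edgeR 3.09% of all tested genes passed with the block and 0% without it. An unadjusted p below 0.05 was found for 2121 of all 12593 tested genes with the block and for 419 without it. Their median log2 fold change, block included, was 0.02 against -0.01 over all tested genes. Ifngr1, a chain of the interferon-gamma receptor, had a log2 fold change of 0.16, Cmtm6, which protects PD-L1 from degradation, one of 0.16, and the transcription factor gene Irf1 one of 0.19, with edgeR adjusted p-values of 0.375, 0.418 and 0.434 with the block. Irf1 was at 24.8, 23.7 and 24.0 CPM in the controls and at 28.5, 29.4 and 24.8 CPM in the Erbb2 libraries. The groups of Irf1 and Jak2, 2 of the 16 tested genes, did not overlap, where 8.75% of all tested genes did not. Socs1, which restrains interferon signalling, had too few counts to be tested and reached 0.791 CPM.

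Lgals9 (ENSMUSG00000001123), which encodes the secreted sugar-binding protein galectin-9, was at 220, 293 and 223 CPM in control replicates 1, 2 and 3. It was at 226, 269 and 202 CPM in Erbb2 replicates 1, 2 and 3. The groups overlapped, and replicate 2 was the highest of both. With the block the log2 fold change was -0.08 (95% interval -0.24 to 0.09; edgeR adjusted p = 0.686).

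The B7 family members showed levels that overlapped between the groups. Cd276 (ENSMUSG00000035914) was at 88.0, 69.6 and 105 CPM in the controls and at 88.9, 86.9 and 105 CPM in the Erbb2 libraries. It was higher in 3 of 3 pairs, as were 19.6% of all tested genes, but the difference came to 0.32 on the log2 scale in replicate 2 and to 0.02 and 0.00078 in replicates 1 and 3. Vtcn1 (ENSMUSG00000051076), a ligand whose receptor on T cells is not settled, was at 156, 175 and 134 CPM in the controls and at 153, 169 and 147 CPM in the Erbb2 libraries. In both groups replicate 2 was its highest library and replicate 3 its lowest. With the block the log2 fold change was 0.11 for Cd276 (95% interval -0.08 to 0.30; edgeR adjusted p = 0.600) and 0.02 for Vtcn1 (95% interval -0.15 to 0.19; edgeR adjusted p = 0.930).

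Pvr and Nectin2 encode ligands of TIGIT that also bind the activating receptor DNAM-1. Pvr (ENSMUSG00000040511) was at 28.9, 15.3 and 26.1 CPM in control replicates 1, 2 and 3 and at 35.0, 21.8 and 25.02 CPM in the Erbb2 libraries. The groups overlapped, and replicate 2 was the lowest library in both. Its log2 ratios in the pairs were 0.28, 0.51 and -0.06, and with the block the log2 fold change was 0.22 (95% interval -0.05 to 0.50; edgeR adjusted p = 0.414). Without the pair of replicate 3 it was 0.38 (edgeR adjusted p = 0.0602). Nectin2 (ENSMUSG00000062300) was at 151.5, 176 and 185 CPM in the controls and at 173, 168 and 173.5 CPM in the Erbb2 libraries. The Erbb2 libraries all lay within the range of the controls, with a log2 fold change of 0.01 with the block (95% interval -0.17 to 0.19; edgeR adjusted p = 0.973).

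Of the 9 nectins, nectin-like molecules and partners besides Nectin2, 6 were tested and 0 passed with or without the block by edgeR, DESeq2 and limma voom, with 0 at an unadjusted p below 0.05. Among all 12593 tested genes 3.09% passed in edgeR with the block and 0% without it, and 2121 and 419 had such an unadjusted p. Their median log2 fold change, block included, was 0.14, against -0.01 over all tested genes. Afdn, which encodes the nectin-anchoring protein afadin, stood at 0.14, Nectin4 at 0.25 and Cadm1 at 0.13 on the log2 scale (edgeR adjusted p = 0.376, 0.488 and 0.622 with the block). Cadm2 was at 0 in the 3 Erbb2 libraries and had 12 counts over the controls, at most 0.451 CPM.

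Cd47 (ENSMUSG00000055447), whose product binds SIRPα on macrophages and inhibits engulfment, had the smallest ratio of highest to lowest library of the members with reads. It was at 120.2, 140.5 and 121 CPM in the controls and at 122, 136 and 119 CPM in the Erbb2 libraries. Its highest library was 1.18 times its lowest, against 1.22 for Nectin2, and replicate 2 was the highest in both groups. The coefficient of variation of Cd47 was below that of Nectin2 in the controls (9.10% against 10.2%). In the Erbb2 libraries it was above that of Nectin2 (7.28% against 1.72%). With the block the log2 fold change was -0.01 (95% interval -0.18 to 0.15; edgeR adjusted p = 0.955). Of 7 other genes of the CD47 axis, 5 were tested. With the block 1 rose and 0 fell, where 2.37% of all tested genes rose and 0.723% fell. Without it 0 passed and 2 had an unadjusted p below 0.05 (edgeR), as had 419 of all 12593 tested genes. Itgav, an integrin chain, was at 139, 95.6 and 153 CPM in the controls and at 187, 159 and 185 CPM in the Erbb2 libraries, and rose 1.39-fold with the block (edgeR adjusted p = 0.0171, or 0.9997 without the block). The call on Itgav was lost when the pair of replicate 1 or of replicate 2 was left out (edgeR adjusted p = 0.0580 and 0.216). Calr, whose protein promotes engulfment when exposed on the cell surface, had a log2 fold change of -0.32 and Thbs1, a ligand of CD47, one of 0.36 (edgeR adjusted p = 0.0594 and 0.143 with the block). DESeq2 with the block called Itgav, Calr and Thbs1, and limma voom with the block Itgav and Calr. Qpct, the untested gene with the most counts, reached 0.0927 CPM.

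Tnfrsf14 (ENSMUSG00000042333), the gene for HVEM, had 6, 6 and 11 counts in control replicates 1, 2 and 3 and 7, 12 and 5 counts in the Erbb2 libraries. This is 0.278, 0.338 and 0.473 CPM against 0.305, 0.679 and 0.208 CPM, with groups that overlapped. It fell below the count minimum and was not tested, so that of the 10 members 8 were tested, Ceacam2 and Tnfrsf14 being the others. The exact Poisson interval of the highest library, 0.351 to 1.19 CPM, overlapped that of the lowest, 0.0676 to 0.486 CPM.

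**Figure D3:**
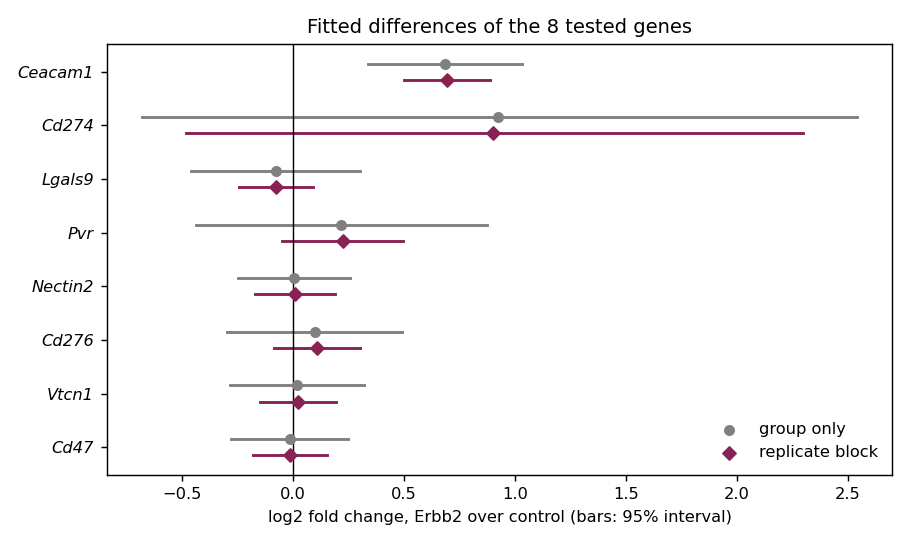
Log2 fold change of the 8 tested genes, Erbb2 over control, with 95% intervals, for the fit to the group alone (grey) and the fit that adds the replicate number (purple). The interval of Ceacam1 lies above 0 in both fits and those of the other 7 genes hold 0; p-values adjusted over all genes passed for Ceacam1 with the block only.

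Over the 8 tested members the median log2 fold change was 0.06 without the block and 0.06 with it, against -0.01 in both fits over all tested genes. For each of the 7 tested members other than Ceacam1 the edgeR adjusted p was 0.9997 without the block. The members' spread between libraries of a group differed widely. The coefficient of variation in the controls was 9.10% for Cd47, 10.2% for Nectin2, 13.4% for Vtcn1, 18.3% for Ceacam1, 30.6% for Pvr and 65.5% for Cd274. In the Erbb2 libraries it was 1.72% for Nectin2, 6.77% for Ceacam1 and 49.1% for Cd274.

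Levels were compared between genes as CPM per kilobase of the union of annotated exons. In the controls the order was Lgals9 at 115 ± 19.4, Vtcn1 at 59.1 ± 7.92, Nectin2 at 49.0 ± 5.01, Cd276 at 23.9 ± 4.84, Cd47 at 20.3 ± 1.84, Ceacam1 at 11.2 ± 2.05, Pvr at 3.83 ± 1.17, Tnfrsf14 at 0.253 ± 0.0695 and Cd274 at 0.134 ± 0.0876 CPM per kilobase (SD, n = 3). Neighbours whose libraries overlapped in this order were Vtcn1 and Nectin2, Cd276 and Cd47, and Tnfrsf14 and Cd274. The order was the same in the Erbb2 libraries, where Ceacam1, at 18.0 ± 1.22 CPM per kilobase, overlapped with Cd47, at 20.1 ± 1.46. There Cd276 did not overlap with Cd47, nor Vtcn1 with Nectin2.

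The place of Ceacam1 in this order depended on the length used. Per kilobase of the longest annotated transcript, an alternative chosen after seeing the data, Ceacam1 was at 17.8 in the controls and at 28.6 ± 1.93 in the Erbb2 libraries. By group mean it there stood above Cd276 (25.98 ± 2.77) and Cd47 (24.0 ± 1.74; SD, n = 3). With that length the mean of Nectin2 (62.5 ± 6.41 in the controls) also stood above that of Vtcn1 (59.1 ± 7.92). Overlap of single libraries was not compared with this length.

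**Figure D4:**
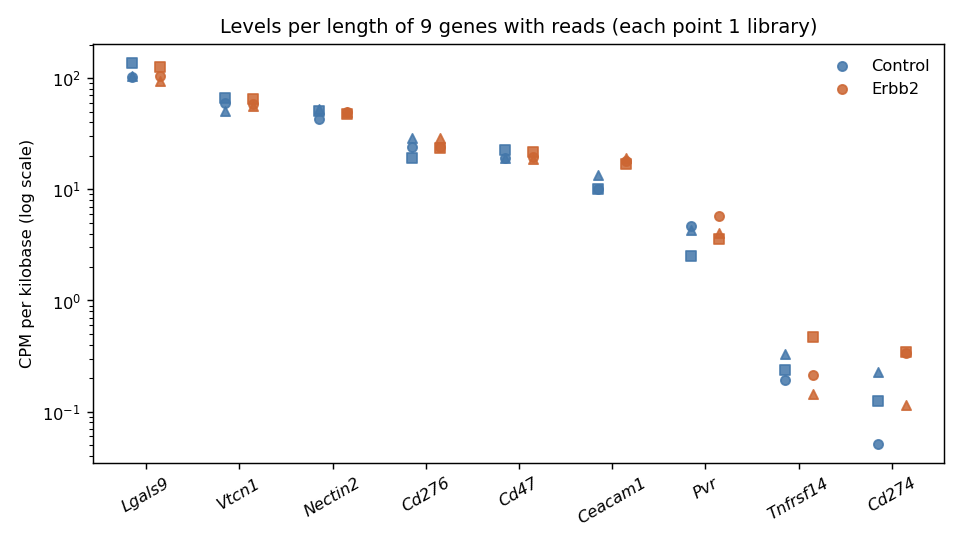
CPM per kilobase of exon model, on a log axis, of the 9 genes with reads, each point 1 library, controls in blue and Erbb2 libraries in orange. Lgals9 is the highest in both groups, at 115 and 109 CPM per kilobase on average, and Tnfrsf14 and Cd274 lie below 1; Ceacam2 is not drawn because it is at 0.

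Genes whose values over the 6 libraries were most like those of Ceacam1 were found by the root mean square difference of log2 CPM, each centred on its mean, among 10882 genes. They were Ptgs2, which encodes the prostaglandin synthase COX-2, at 0.0678, Gnal at 0.0793, Helz2 at 0.0807, Stard5 at 0.0950 and Fam167a at 0.0959 on the log2 scale, where the median over all genes was 0.447. Ptgs2 was at 32.1, 34.3 and 43.4 CPM in the controls and at 55.3, 59.5 and 65.3 CPM in the Erbb2 libraries. With the block their log2 fold changes were 0.72 for Ptgs2, 0.59 for Gnal, 0.61 for Helz2, 0.70 for Stard5 and 0.81 for Fam167a; since the genes were chosen for values that follow Ceacam1, these are given without a test. The likeness rests on 6 libraries and is a description.

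**Figure D5:**
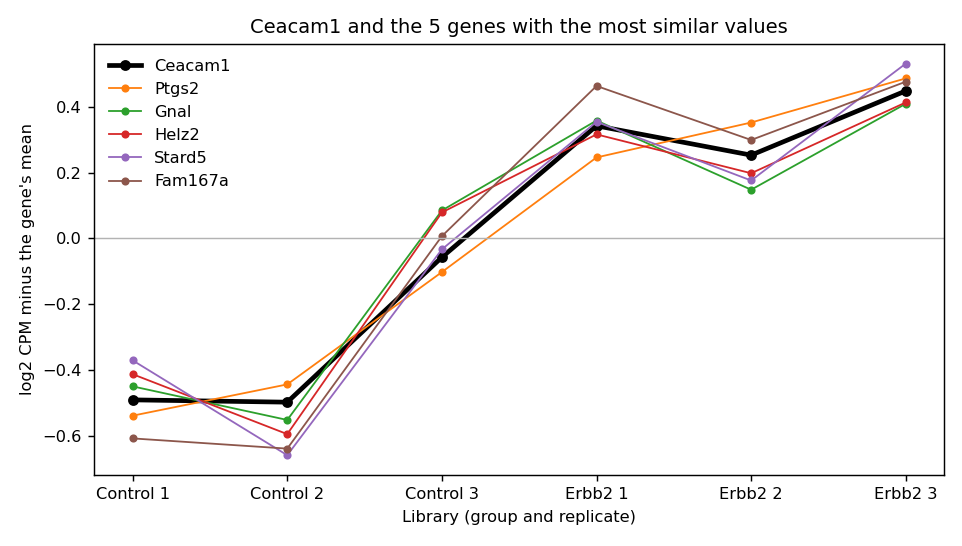
Log2 CPM minus each gene's own mean in the 6 libraries for Ceacam1 (black) and the 5 genes closest to it; lines join the values of 1 gene, and libraries of a group have no order. In each gene control replicate 3 is the highest control and all Erbb2 libraries lie above it.

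Relatives and partners of CEACAM1 were read from the same fits. Of 13 other Ceacam genes, 0 had enough counts to be tested and 9 were at 0 in all libraries; Ceacam10, with 35 counts over the 6 libraries, reached 0.567 CPM. Of 8 signalling partners of CEACAM1, 8 were tested and 0 passed in edgeR with or without the block, where 3.09% and 0% of all tested genes passed. Of these partners, 3 with the block and 0 without it had an unadjusted p below 0.05. Among all 12593 tested genes, 2121 with the block and 419 without it had such a p. DESeq2 with the block called Egfr and Flna higher, and limma voom with the block called Egfr. The list's median log2 fold change, block included, was 0.08. Egfr, a receptor kinase, stood at 0.68, the actin-binding filamin gene Flna at 0.52 and Ptpn6, the gene for SHP-1, at -0.29 on the log2 scale (edgeR adjusted p = 0.0809, 0.118 and 0.233 with the block). Egfr was at 49.4, 28.6 and 63.5 CPM in the controls and at 74.5, 66.5 and 77.8 CPM in the Erbb2 libraries. The groups of Egfr, Flna and Ctnnb1, 3 of the 8 tested genes, did not overlap, where 8.75% of all tested genes did not.

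A list of 17 other immune-modulating genes held mostly ligands described as inhibitory, together with Cd80, Cd86 and Icosl, which also costimulate T cells, and the enzyme genes Ido1 and Nt5e. Of these 17 genes 11 were tested. With the block 2 rose and 1 fell, where 2.37% of all tested genes rose and 0.723% fell. Without it 0 of the 11 passed, and 1 had an unadjusted p below 0.05 (edgeR), as had 419 of all 12593 tested genes. The list's median log2 fold change, block included, was -0.03. H2-T23, which encodes the Qa-1 heavy chain that presents peptides to the NKG2A receptor, rose 1.49-fold (edgeR adjusted p = 0.0210); similar class I genes can share its reads. Btn1a1, a butyrophilin, rose 1.77-fold (edgeR adjusted p = 0.0483) at 4.17, 2.20 and 12.3 CPM in the controls and 10.5, 3.85 and 17.6 CPM in the Erbb2 libraries. Cd24a, a surface glycoprotein that binds Siglec receptors, fell 1.27-fold (edgeR adjusted p = 0.0481), with 3121, 4062 and 2010 CPM in the controls and 2424, 2945 and 1761 CPM in the Erbb2 libraries. The groups of all 3 overlapped. Without the pair of replicate 1 the edgeR adjusted p was 0.143, 0.298 and 0.213 for H2-T23, Btn1a1 and Cd24a, and without that of replicate 2 it was 0.0375, 0.110 and 0.495. In limma voom with the block Btn1a1 did not pass (adjusted p = 0.0717). Pdcd1lg2, the gene for PD-L2, had too few counts to be tested and reached 0.708 CPM.

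Of 13 costimulatory ligands and ligands of the activating receptor NKG2D, 5 were tested and 0 passed with or without the block by edgeR, DESeq2 and limma voom, with 0 at an unadjusted p below 0.05. Among all 12593 tested genes 3.09% passed in edgeR with the block and 0% without it, and 2121 and 419 had such an unadjusted p. H60c stood at -0.58, Ulbp1 at 0.33 and Icam1 at 0.15 on the log2 scale (edgeR adjusted p = 0.362, 0.453 and 0.556 with the block), and the list's median was 0.15. Tnfsf4, the ligand of OX40, was not tested; it had 69 counts over the 6 libraries and reached 1.29 CPM in Erbb2 replicate 3. Of 16 receptors of the ligands, 3 were tested and 1, Tigit, rose 1.57-fold with the block (edgeR adjusted p = 0.0491, or 0.9997 without the block). With the block 2.37% of all tested genes rose and 0.723% fell. The call on Tigit was lost without the pair of replicate 2 or 3 (edgeR adjusted p = 0.208 and 0.103). It was also lost in limma voom with the block (adjusted p = 0.0502). Sirpa, the receptor of CD47, stood at 0.69 and Ltbr at 0.06 on the log2 scale (edgeR adjusted p = 0.366 and 0.763 with the block). Pdcd1, Cd226, Cd96, Btla, Cd160, Ctla4, Siglecg and Cd200r1 were at 0 in all libraries, and Lag3, with the most counts among the untested receptors, reached 0.679 CPM.

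Some markers of gastric cell types passed the test beside Ceacam1. Of 9 tested corpus markers, with the block, 2 rose and 1 fell, where 2.37% of all tested genes rose and 0.723% fell. Without the block 0 passed in edgeR, where 3 had an unadjusted p below 0.05, and DESeq2 called Psca. Tff2, a trefoil peptide of mucous cells, rose 1.88-fold, Psca, a surface protein of pit cells, 2.05-fold, and Sox2 fell by 0.48 on the log2 scale (edgeR adjusted p = 0.00166, 0.00557 and 0.0144). The call on Sox2 was lost without the pair of replicate 2 (edgeR adjusted p = 0.163). The summed level of the 10 corpus markers ran from 297 to 417 CPM in the controls and from 401.5 to 639 CPM in the Erbb2 libraries. With the block 6 of the 9 tested had a log2 fold change above 0, so that the sum mixes both directions. Tff1 was at 62.8, 73.9 and 28.6 CPM in the controls and at 85.05, 187 and 115 CPM in the Erbb2 libraries. It was called higher by limma voom with the block but not by edgeR with it (adjusted p = 0.325). The part of these markers in the difference of Ceacam1 was not tested. Of 7 epithelial markers 0 passed in edgeR with or without the block, with 3 and 0 at an unadjusted p below 0.05. Such a p was found for 2121 of all 12593 tested genes with the block and for 419 without it. DESeq2 and limma voom with the block both called Krt7 and Cldn18 higher. Their log2 fold changes were 0.34 for Krt7, 0.93 for Cldn18 and 0.18 for Krt19 (edgeR adjusted p = 0.0526, 0.120 and 0.247 with the block). Ptprc, the 1 immune marker with enough counts, stood at -0.87, Col1a1 among fibroblast markers at 0.49, and Tek and Esam among endothelial markers at 2.66 and 0.22 on the log2 scale (edgeR adjusted p = 0.327, 0.636, 0.145 and 0.730). The value of Tek came from Erbb2 replicate 3, at 8.95 CPM, while the other 5 libraries reached at most 0.688 CPM. Csf1r, Vim and Kdr, the untested markers with the most counts in these lists, reached 0.583, 0.301 and 0.349 CPM.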

How the data were processed

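Polyadenylated RNA of 6 organoid libraries was sequenced, per the labels. The deposited tables, 1 a library, hold unnormalized counts of reads for each Ensembl gene, made by the authors with STAR and featureCounts on GRCm39, per the submitters' processing notes; versions, annotation, strand and the treatment of multiply mapped reads are not given in these sources. Symbols matched 25424 of 25528 IDs; the 104 IDs without one held 0.120% to 0.219% of counts. Lengths and transcripts came from GENCODE M21 (GRCm38), and none of its coordinates are used with the counts. Replicates of a group differed far beyond sampling noise (chi-square per degree of freedom at least 35.0).

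Counts were tested with edgeR 4.0.16 in R 4.3.3: filterByExpr (minimum count 10, 12593 genes), TMM scaling, robust quasi-likelihood F test, two-sided, Benjamini-Hochberg adjustment, threshold 0.05. The design had the group alone. Standard errors are the fold change over the square root of F. Pairing by replicate number was checked over all genes. Each library's deviation from its group mean was correlated with that of its partner, which gave 0.333, 0.660 and 0.707 for numbers 1, 2 and 3. All were above 0.1, so values with the number as a block are given beside the others. Control 1 with Erbb2 2 also passed that cut (0.128), and control 2 with Erbb2 1 came to 0.0962. The remaining unmatched pairs lay between -0.657 and -0.28. The cut alone thus does not separate partners from other libraries, and number 1 had the lowest correlation of the partners. The pairing comes from the shared numbers in the sample titles and from this check on the same counts. Alternatives were other scalings, filters, DESeq2 1.42.0, limma 3.58.1 (voom), the block, left-out libraries and edgeR's older quasi-likelihood fit. The procedure was also run on counts simulated from the fitted block model, which cannot show whether the replicate numbers mark true blocks. A comparison of protein sequences was planned and not made.

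The members and lists were chosen with earlier results of these data known. All members are named, from each other list every called gene and otherwise up to 3 with the smallest p in the fit with the block and the untested gene with the most counts, and the 5 genes most like Ceacam1 whose log2 CPM averages 1 or more.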

Additional observations from a re-analysis of the deposited data

How the results depend on the processing

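With the group alone, 0 genes were called in either direction by edgeR, and the same was found with other scalings, filters and limma voom; DESeq2 called 28 higher and 6 lower. With the block 298 were called higher and 91 lower. Other settings with the block gave 312 and 83 (RLE scaling), 288 and 93 (upper-quartile), 366 and 96 (DESeq2), 288 and 88 (limma voom), 272 and 73 (no filter on low counts) and 306 and 82 (at least 1 CPM in 3 libraries). EdgeR's older quasi-likelihood fit, chosen after seeing the data, gave 312 and 93. Summing Ceacam1 with Ceacam2 left 298 and 91, as it had to, because Ceacam2 is at 0 in all libraries. Without 1 library there were 0 to 1 higher and 0 lower; the 1 was without control replicate 3. With the block and without the pair of replicate 1, 2 or 3 there were 173, 122 and 769 higher and 40, 24 and 320 lower. The cause was not tested.

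The log2 fold change of Ceacam1 passed with the block at 0.69, at 0.70 (RLE, DESeq2, CPM filter, older fit) and at 0.69 (upper-quartile, limma voom, no filter, summed), at 0.63, 0.68 and 0.80 without the pair of replicate 1, 2 or 3, and without the block in DESeq2 alone (0.69); leaving out 1 library gave 0.61 to 0.85. The replicate block changed the call of no other member. The ranges without 1 library were 0.52 to 1.597 for Cd274, -0.20 to 0.069 for Lgals9, -0.011 to 0.39 for Pvr, -0.077 to 0.070 for Nectin2, -0.044 to 0.25 for Cd276, -0.078 to 0.11 for Vtcn1 and -0.077 to 0.062 for Cd47. For other named genes that turned direction they were -0.0067 to 0.40 for Icam1, -0.17 to 0.37 for Cadm1, -0.60 to 0.037 for Ptpn6, -1.50 to 3.21 for Tek and -0.15 to 0.83 for Esam. The direction turned without control replicate 2 for Lgals9 (0.069), Pvr (-0.011), Cd276 (-0.044), Cd47 (0.062), Icam1, Ptpn6 and Esam (-0.064), without control replicate 1 for Nectin2 (-0.077) and without control replicate 3 for Vtcn1 (-0.078). It also turned without Erbb2 replicate 1 for Pvr (-0.0047), Nectin2 (-0.0027) and Cd47 (0.0040), without Erbb2 replicate 2 for Vtcn1 (-0.046), and without Erbb2 replicate 3 for Lgals9 (0.013), Nectin2 (-0.0043), Cd47 (0.024), Cadm1, Tek and Esam. With the block it turned without the pair of replicate 1 for Nectin2 (-0.082), of replicate 2 for Cd47 (0.015) and of replicate 3 for Vtcn1 (-0.031) and Cadm1 (-0.033). None of these values passed the test, and adjusted p-values that DESeq2 leaves undefined were not counted. Per kilobase of the longest transcript Ceacam1 moved from 11.2 to 17.8 in the controls and from 18.0 to 28.6 in the Erbb2 libraries. Depth limits Cd274 and Tnfrsf14, with at most 28 and 12 counts in a library; Cd274 had no value under the CPM filter.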

Other observations

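Tigit, the gene for the receptor of PVR and nectin-2 on T and natural killer cells, had reads in every library of these epithelial organoids. It had 295, 104 and 428 counts in control replicates 1, 2 and 3, or 13.7, 5.86 and 18.4 CPM. It had 361, 194 and 820 counts in the Erbb2 libraries, or 15.7, 10.98 and 34.1 CPM. The groups overlapped, replicate 3 was the highest library and replicate 2 the lowest in both, and the ratio within the pairs was 1.15, 1.87 and 1.85. Cd3g, Cd4, Cd8a, Nkg7 and Ncr1, markers of T and natural killer cells, were at 0 in all 6 libraries, and Cd3e had 9 counts over the 6. Of the distinct 100-base windows of the Tigit transcripts 0% occurred in a transcript of another gene, and no annotated gene overlaps Tigit. With 50-base windows the share was 0.69% (6 of 870). The source of these reads was not tested.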
